A study of Mus musculus with 2 samples.

Results

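The matrix proteases and their inhibitors were examined in the mouse myoblast line C2C12, as wild-type cells (WT) and as a Gne knockout line (KO). They comprise the matrix metalloproteinases (MMPs), the tissue inhibitors of metalloproteinases (TIMPs), and the ADAM and ADAMTS families. Genes were chosen by a rule on symbols that uses no values, but earlier results of these data were known when it was written. The rule gave 78 of the 21829 genes in the series: 22 MMP, 4 TIMP, 19 ADAMTS and 33 ADAM genes. The KO line was a single clone, isolated after Cas9 editing of exon 2 of Gne, the gene of the rate-limiting enzyme of sialic acid synthesis. Both lines were grown untreated in medium with fetal bovine serum, and RNA sequencing was performed on 1 library of polyadenylated RNA per line. With 1 library per line there is no replicate error, so no difference given here was tested, and the loss of Gne and the history of the clone cannot be told apart.

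Values are given in FPKM, in which reads are divided by transcript length and by sequencing depth, so that levels can be compared between genes. The unit was taken from the values and is not named with them. Genes whose mean over the 2 libraries reached 1 FPKM were compared, and the log2 fold change is log2((KO + 1)/(WT + 1)), on which a value beyond 1 in either direction is called a change of more than 2-fold. This scale understates the change of low genes. Of the 78 genes, 26 passed this filter, 20 had a value above 0 but stayed below it, and 32 were listed at 0 in both libraries. Over all genes, 10542 passed.

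Proteins of this group cut, trim or release the material outside the cell. MMPs are zinc proteases that are made as inactive precursors and degrade collagens, laminins, fibronectin and proteoglycans, and TIMPs block their active site. ADAMTS proteases are secreted and act on proteoglycans, procollagens and microfibril proteins, whereas ADAMs sit in the membrane, where several of them shed growth factors, receptors and Notch from the cell surface. In muscle, such proteases take part in myoblast migration and fusion and in the repair of the matrix around fibres.

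The amount of Gne RNA does not show which library carries the edit, because a small insertion or deletion need not lower it. The level of Gne was 6.67 FPKM in WT against 7.34 FPKM in the other library, which is therefore called the KO-labelled library, by its label alone. Of 9 myoblast markers 7 passed the filter, of which 4 lay more than 2-fold below WT, against 3.43% of all genes, and 1 more than 2-fold above it, against 2.84%. Of the 4 lower markers, Myod1, Cdh15 and Chrna1 passed the filter through the WT value alone, so that they had to be lower. Myod1 was listed at 0 in the KO-labelled library, which can be a failed estimate. Des, the other lower marker, was 97.6 FPKM in WT and 3.84 FPKM in the KO-labelled library. The summed level of the 9 markers was 279.4 FPKM in WT against 106.0 FPKM. Pax7 was listed at 0 in both. Of 6 fibroblast markers 3 passed, and the 2 collagen I genes among these lay more than 2-fold above WT. Col1a1 was 9.66 and 273.4 FPKM, and Col1a2 was 237.5 and 620.6 FPKM. Pdgfra, the other marker past the filter, was 10.8 and 12.3 FPKM, a log2 fold change of 0.17. Dcn, just below the filter at 0.272 and 1.68 FPKM, had a log2 fold change of 1.08. The 6 markers summed to 258.2 and 908.0 FPKM, mostly from the 2 collagen I genes, while Lum and Thy1 were listed at 0 in both. The part of these shifts in the results below was not tested. Of 6 macrophage markers, Ptprc, Adgre1 and Itgam were listed at 0 in both libraries, and Cd68, a lysosomal protein of many cells, was the only one past the filter, with 2.85 FPKM in WT and 1.06 FPKM in the KO-labelled library. Lyz2 was 0.191 and 0.438 FPKM, and Csf1r was 0.054 and 0.078 FPKM. The 6 summed to 3.10 and 1.58 FPKM. The 4 neutrophil markers summed to 0.325 FPKM in WT and were listed at 0 in the KO-labelled library, and the 4 endothelial markers summed to 0.01 and 0.028 FPKM, with Cdh5 and Kdr at 0 in both. The number of reads is unknown. For the 406 genes at 0.02 to 0.1 FPKM in each library, the ratio of the KO-labelled library to WT peaked at 1.13, as would arise from equal read numbers if WT held that many times more reads.

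The pattern of these families was dominated by a few abundant genes, whose levels were close in the 2 libraries. The values of all 78 genes summed to 1036 FPKM in WT and 1071 FPKM in the KO-labelled library. TIMPs made up the largest share, with 534.7 and 526.1 FPKM, followed by MMPs with 317.0 and 334.7 FPKM, ADAMs with 151.3 and 173.0 FPKM and ADAMTS with 33.52 and 36.74 FPKM. The summed level of TIMPs was thus 1.69 times that of MMPs in WT and 1.57 times in the KO-labelled library. Of the 26 genes that passed, 3 lay more than 2-fold higher in the KO-labelled library, against 2.84% of all genes, and 1 lay more than 2-fold lower, against 3.43%, which made 4 in either direction, against 6.27%. The 3 higher genes were Mmp19, Adam12 and Adamts12, and the lower gene was Mmp23. The median log2 fold change of the 26 genes was 0.0098, beside 0.0061 for all genes, with 13 genes higher, beside 50.7% of all genes, and 13 lower. A log2 fold change within 0.5 of 0 was found for 18 of the 26 genes, or 69.2%, and for 80.9% of all genes.

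**Figure D1:**
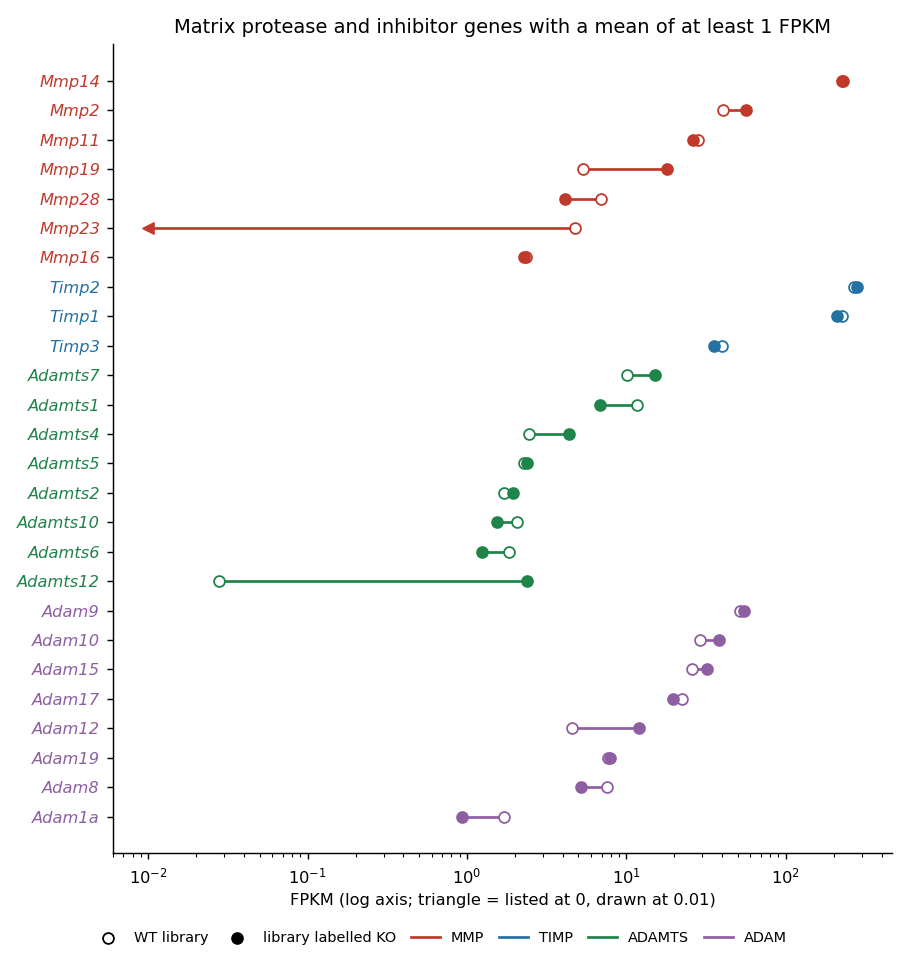
Levels in FPKM, on a log axis, of the 26 genes that passed the filter, with 1 open circle for the WT library and 1 filled circle for the KO-labelled library per gene, coloured by family. Circles lie close together for Mmp14, Timp1 and Timp2 at the top of the range, and far apart for Mmp19, Adam12, Adamts12 and Mmp23, whose triangle stands for a listed 0.

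Among the proteases, Mmp14 had the highest level. It encodes membrane-type 1 MMP, a collagenase anchored in the cell membrane that also activates the precursor of MMP2. Mmp14 was 228.2 FPKM in WT and 226.3 FPKM in the KO-labelled library, a log2 fold change of -0.01. It made up 72.0% and 67.6% of the summed MMP level and lay at percentile 96.6 of all genes past the filter in each library. The other membrane-type MMP past the filter, Mmp16, was 2.35 and 2.27 FPKM. Neither gene differed by more than 2-fold, and the remaining membrane-type genes, Mmp15, Mmp17, Mmp24 and Mmp25, had at most 0.464 FPKM.

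Mmp2, which encodes the secreted gelatinase A and is a target of MMP14, was 40.3 FPKM in WT and 56.6 FPKM in the KO-labelled library. The ratio was 1.40, and the log2 fold change was 0.48, below the limit for a call. Its share of the summed MMP level was 12.7% in WT and 16.9% in the KO-labelled library. The level of Mmp14 was 5.66 times that of Mmp2 in WT and 4.00 times in the KO-labelled library. Mmp9, the other gelatinase, stayed below the filter, at 0.045 FPKM in WT and 0.564 FPKM in the KO-labelled library.

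The value of Mmp2 stood apart from those of the genes around it. It lies on chromosome 8 of GRCm39 from 93553902 to 93580049, in a stretch where values were lower in the KO-labelled library. Among the 20 genes past the filter on each side, 38 of 40 were lower, 20 of them beyond 2-fold, with a median log2 fold change of -1.0. Only Ces1g and Cx3cl1 were higher among them. Ces1g went from 0.292 to 4.92 FPKM and was the only neighbour with a log2 fold change above that of Mmp2. With the neighbour median subtracted, the value of Mmp2 was 1.48. Further along the same stretch lies Mmp15, from 96078895 to 96101708, whose level was 0.464 FPKM in WT and 0.123 FPKM in the KO-labelled library. Mmp15, a second membrane-type MMP, was thus lower like most of its 40 neighbours, of which 28 were lower, with a median of -0.86. DNA copy number was not measured in these files.

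**Figure D2:**
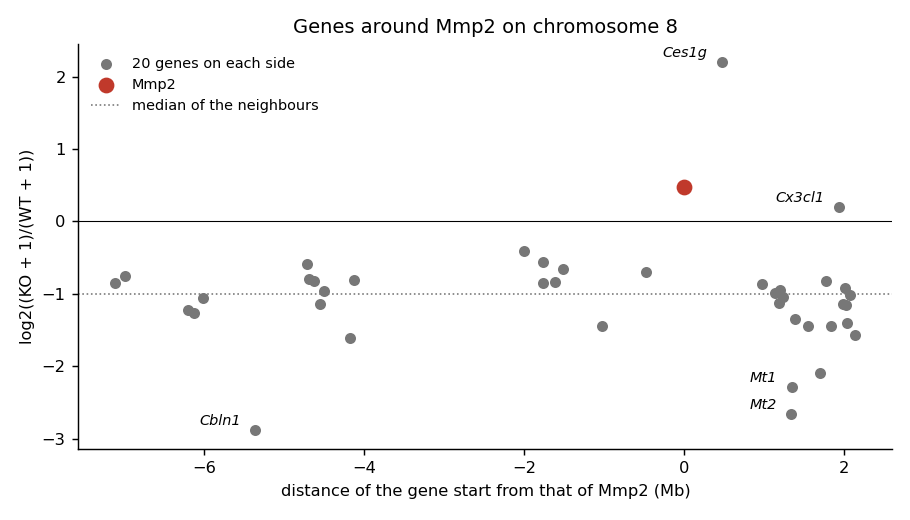
Log2 fold change of the KO-labelled library against WT for Mmp2 and the 20 genes past the filter on each side, by distance of the gene start from that of Mmp2 in Mb. Mmp2 lies at 0.48 above 0, while 38 of the 40 neighbours lie below 0 and their median, the dotted line, is at -1.0.

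Mmp19 had the highest log2 fold change among the MMPs past the filter. It encodes a secreted MMP that cleaves basement membrane proteins. Mmp19 was 5.34 FPKM in WT and 18.0 FPKM in the KO-labelled library, a ratio of 3.38 and a log2 fold change of 1.59. It lay at percentile 20.6 of all genes past the filter in WT and at 55.3 in the KO-labelled library, and its share of the summed MMP level was 1.69% and 5.39%. The gene is on chromosome 10 of GRCm39 from 128626773 to 128636695, where the 28 neighbouring genes had a median of 0.23. Its value after subtraction of that median was 1.36. Mmp19 overlaps Tmem198b on the opposite strand, which was 13.7 and 19.4 FPKM. The methods describe a strand-specific library kit, but the sources differ on the kit. Whether strand was used in the quantification is not stated, so the reads of such pairs may not be separated.

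Mmp23 differed most in the other direction. It encodes an MMP that is anchored by its N-terminal end and lacks the hemopexin domain. Mmp23 was 4.78 FPKM in WT and listed at 0 in the KO-labelled library. It passed the filter through the WT value alone, so that it had to differ. An exact 0 in these files can be a failed estimate, because genes used by most cells are also listed at 0: Smim20, which encodes an assembly factor of cytochrome c oxidase, was listed at 0 in WT and at 13.5 FPKM in the KO-labelled library. No ratio is therefore given for Mmp23, and the size of its log2 fold change depends on the pseudocount. Mmp23 is still counted as the 1 lower gene. Without Mmp23, 0 of 25 genes were more than 2-fold lower.

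Mmp11 and Mmp28 completed the MMPs past the filter. Mmp11 encodes stromelysin 3, which is activated inside the cell by furin, and was 28.4 FPKM in WT and 26.4 FPKM in the KO-labelled library. On its part of chromosome 10 most neighbours were higher in the KO-labelled library, with a median of 0.45, so that the log2 fold change of -0.10 became -0.55 after subtraction. Mmp28, which encodes epilysin, was 6.96 FPKM in WT and 4.14 FPKM in the KO-labelled library, a log2 fold change of -0.63.

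The collagenases, stromelysins other than Mmp11 and several further MMPs form a group on chromosome 9, between 7272514 and 7699587 of GRCm39, and were at or near 0 in both libraries. Since a listed 0 can be a failed estimate, these values do not show that the RNA was absent. This group, delimited after its values were seen, holds 9 MMP genes of the series. Of these, 5 were listed at 0 in both libraries, and the highest values were 0.013 FPKM in WT and 0.13 FPKM in the KO-labelled library, both of Mmp13, which encodes the main rodent collagenase for fibrillar collagen. Mmp3, which encodes stromelysin 1, was listed at 0 in WT and at 0.11 FPKM in the KO-labelled library. Mmp10 and Mmp27 were listed at 0 in WT and at 0.022 and 0.040 FPKM in the KO-labelled library. The genes Mmp1b, Mmp7, Mmp8, Mmp12 and Mmp20 were at 0 in both.

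Promoters of this group often held the same pair of sequence motifs close to the start. The 250 bases before each annotated start were searched on both strands for TGANTCA, which contains the site of AP-1 (dimers of Fos and Jun proteins), for TATAAA, the TATA box, and for GGGCGG, the GC box. Matches to different motifs of these 3 cannot overlap. RefSeq promoter sequences on GRCm38.p6 were found for 48 of the 78 genes, with 53 starts. Of the 26 genes past the filter, 16 had such a sequence, with 19 starts. Mmp2, Mmp19, Adam12 and Adamts4 were among those without one. TGANTCA was present at 7 of the 11 starts of the chromosome 9 MMP genes, at 1 of 19 starts of the genes past the filter, and at 6.75% of all 32851 starts. TGANTCA and TATAAA occurred together at 6 of these 11 starts, against 1.21% of all starts. GGGCGG was found at 0 of the 11 starts, at 12 of the 19 starts of the genes past the filter and at 32.7% of all starts. The shares over all starts include genes that did not pass the filter. No share was computed for the other genes that passed, so the counts at the 19 starts are not shown to be particular to these families. A match is a description of the letters only. Binding of AP-1 was not measured here.

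Mmp13 and Mmp3 are shown for the pair of TGANTCA and TATAAA close to the start, and the promoters of Adamts12 and Adamts1, described below, for contrast, since they belong to the ADAMTS genes with the highest and lowest log2 fold change. Matches to the 3 motifs are in capitals. Each sequence is given 5′ to 3′ on the strand of the gene, and each matched GRCm39 at a single place, at chr9:7272264-7272513 (plus strand) for Mmp13, chr9:7445572-7445821 (plus strand) for Mmp3, chr15:11064609-11064858 (plus strand) for Adamts12 and chr16:85600010-85600251 (minus strand) for Adamts1. The last 8 bases before the RefSeq start of Adamts1 lie inside the annotated gene and were left out.
Mmp13: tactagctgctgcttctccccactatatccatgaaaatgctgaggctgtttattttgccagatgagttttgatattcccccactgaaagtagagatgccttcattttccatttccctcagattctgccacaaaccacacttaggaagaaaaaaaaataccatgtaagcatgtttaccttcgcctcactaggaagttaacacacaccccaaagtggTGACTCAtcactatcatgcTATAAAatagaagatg
Mmp3: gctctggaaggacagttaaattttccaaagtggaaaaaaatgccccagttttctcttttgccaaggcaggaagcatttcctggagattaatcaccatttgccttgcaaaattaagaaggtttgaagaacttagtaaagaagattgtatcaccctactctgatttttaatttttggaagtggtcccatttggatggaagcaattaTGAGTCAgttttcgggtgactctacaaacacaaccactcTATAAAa
Adamts12: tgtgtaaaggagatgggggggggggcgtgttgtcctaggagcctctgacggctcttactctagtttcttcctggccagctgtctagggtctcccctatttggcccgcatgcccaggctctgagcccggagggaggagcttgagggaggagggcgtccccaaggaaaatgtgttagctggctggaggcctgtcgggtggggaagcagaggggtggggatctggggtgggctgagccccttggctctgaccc
Adamts1: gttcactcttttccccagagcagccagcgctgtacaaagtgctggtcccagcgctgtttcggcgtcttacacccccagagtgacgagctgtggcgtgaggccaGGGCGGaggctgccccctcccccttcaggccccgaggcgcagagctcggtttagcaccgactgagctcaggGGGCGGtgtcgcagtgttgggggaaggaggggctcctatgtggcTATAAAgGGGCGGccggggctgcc
In Mmp13 the TGANTCA match begins 35 bases and the TATAAA match 16 bases before the RefSeq start, and in Mmp3 they begin 46 and 7 bases before it. Adamts12 holds 0 matches to the 3 motifs, and Adamts1 holds 1 TATAAA and 3 GGGCGG matches.

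Levels of the inhibitors were nearly the same in the 2 libraries. Timp2, whose product inhibits MMPs and also links MMP14 to the precursor of MMP2, was 268.7 FPKM in WT and 280.6 FPKM in the KO-labelled library. Timp1, which encodes a secreted inhibitor with little activity on membrane-type MMPs, was 226.1 and 210.1 FPKM. These 2 genes held 92.5% of the summed TIMP level in WT and 93.3% in the KO-labelled library. Timp3, whose product binds to the matrix and also inhibits ADAM17, was 39.9 and 35.4 FPKM. The log2 fold changes were 0.06 for Timp2, -0.11 for Timp1 and -0.17 for Timp3. Around Timp3, on chromosome 10, 4 of the 40 neighbours were lower in the KO-labelled library, with a median of 0.37, and its value after subtraction was -0.54. Timp4 was near 0, at 0.006 and 0.007 FPKM. Timp2 was 1.18 times the level of Mmp14 in WT and 1.24 times in the KO-labelled library.

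The TIMP genes overlap other genes in part. Timp1, Timp3 and Timp4 overlap the synapsin genes Syn1, Syn3 and Syn2 on the opposite strand. Syn1 was 7.11 and 3.99 FPKM and Syn3 was listed at 0 in both libraries, each far below the TIMP gene it overlaps. Syn2 was 0.218 and 0.144 FPKM, above Timp4 at 0.006 and 0.007 FPKM. Timp2 overlaps Cep295nl on the same strand, which was 0.531 and 0.567 FPKM.

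In the ADAMTS family, 8 of 19 genes passed the filter, and their median log2 fold change was 0.07. Adamts12 stood out. It encodes a protease of cartilage oligomeric matrix protein, and was 0.028 FPKM in WT and 2.40 FPKM in the KO-labelled library, a ratio of 85.6 and a log2 fold change of 1.72. Adamts12 passed the filter through the KO-labelled library alone, so that it had to differ, and the size of its ratio rests on a WT value close to 0. It lies on chromosome 15 from 11064876 to 11349318, where the 40 neighbouring genes had a median of -0.04. Adamts7, the closest relative of Adamts12 and a protease of the same substrate, was 10.1 FPKM in WT and 15.1 FPKM in the KO-labelled library, a log2 fold change of 0.54. The gene overlaps Tbc1d2b on the opposite strand, which was 10.5 and 19.1 FPKM.

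ADAMTS genes for the cleavage of aggrecan and versican did not share a direction. Adamts1 was 11.7 FPKM in WT and 6.87 FPKM in the KO-labelled library, a log2 fold change of -0.70, the lowest in the family. Adamts4 was 2.46 and 4.35 FPKM, a log2 fold change of 0.63. Adamts5, which lies beside Adamts1 on chromosome 16, was 2.30 and 2.37 FPKM. Among the 40 neighbours of Adamts1, 33 were lower in the KO-labelled library, with a median of -0.32, which left -0.37 for Adamts1 and 0.36 for Adamts5 after subtraction.

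Of the ADAMTS genes that trim the N-terminal propeptide of procollagen, Adamts2 was 1.72 FPKM in WT and 1.95 FPKM in the KO-labelled library. Adamts14 was 1.09 and 0.708 FPKM, just below the filter, and Adamts3 was listed at 0 in both. Adamts10 and Adamts6, which act on fibrillin microfibrils, were 2.06 and 1.83 FPKM in WT and 1.55 and 1.25 FPKM in the KO-labelled library. None of these 5 genes differed by more than 2-fold.

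Among the ADAMs, the broadly expressed proteases were abundant and similar. Adam9, Adam10, Adam15 and Adam17 held 85.2% of the summed ADAM level in WT and 83.8% in the KO-labelled library. Adam9 was 51.5 FPKM in WT and 54.9 FPKM in the KO-labelled library. Adam10, the main sheddase of Notch, was 29.2 and 38.2 FPKM, a log2 fold change of 0.38. Adam17, which releases tumour necrosis factor and ligands of the EGF receptor, was 22.3 and 19.5 FPKM, a log2 fold change of -0.18. Adam15 was 25.9 and 32.3 FPKM, a log2 fold change of 0.31. Both directions were thus present among the 4 genes, and none passed the 2-fold limit.

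Adam12, which encodes meltrin alpha, a membrane protease known from fusing myoblasts, had the highest log2 fold change among the ADAM genes past the filter. It was 4.58 FPKM in WT and 12.1 FPKM in the KO-labelled library, a ratio of 2.64 and a log2 fold change of 1.23. Adam12 lies on chromosome 7 from 133484928 to 133833875, where the 40 neighbouring genes had a median of 0.28. After its subtraction the value was 0.95, so that the call of more than 2-fold was lost. Adam19, which encodes the related meltrin beta, was 7.70 and 7.89 FPKM. Adam8, a protease best known from leukocytes, was 7.58 and 5.18 FPKM, a log2 fold change of -0.47. Of the macrophage markers, Cd68, whose log2 fold change was -0.90, was also lower, and Ptprc was listed at 0 in both. Lyz2 and Csf1r, both below the filter, were higher instead, at 0.191 and 0.054 FPKM in WT and 0.438 and 0.078 FPKM in the KO-labelled library. The part of other cell types in the Adam8 value was not tested.

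Of 21 ADAM genes known from the testis and epididymis, 15 were listed at 0 in both libraries and 1 passed the filter. This was Adam1a, a relative of the sperm protein fertilin alpha, with 1.71 FPKM in WT and 0.926 FPKM in the KO-labelled library. Its near copy Adam1b was listed at 0 in WT and at 0.011 FPKM, and reads may be divided between such copies. Adam11, Adam22 and Adam23, which encode ADAMs without protease activity that are known from neurons, did not pass the filter. Adam23 was 0.048 FPKM in WT and 0.941 FPKM in the KO-labelled library, Adam22 was 0.022 and 0.244 FPKM, and Adam11 was 0.250 and 0.154 FPKM.

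Genes below the filter carry little information. Of the 20 members with a value above 0 there, 13 were higher and 7 lower in the KO-labelled library, and 50.6% of all 3931 such genes were higher. Adam21 and Adam32, at 0.026 and 0.045 FPKM in WT, were 1.12 and 1.13 times as high in the KO-labelled library, close to the ratio of 1.13 that equal numbers of reads would give. Adam23, Mmp9, Adam22 and Mmp13 lay beyond that ratio at 19.6, 12.5, 11.1 and 10.0 times, from WT values under 0.05 FPKM. In the other direction, Mmp24 went from 0.067 to 0.009 FPKM, 7.44 times lower, and Mmp15 was 3.77 times lower. The genes of this paragraph were named after their values had been seen.

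**Figure D3:**
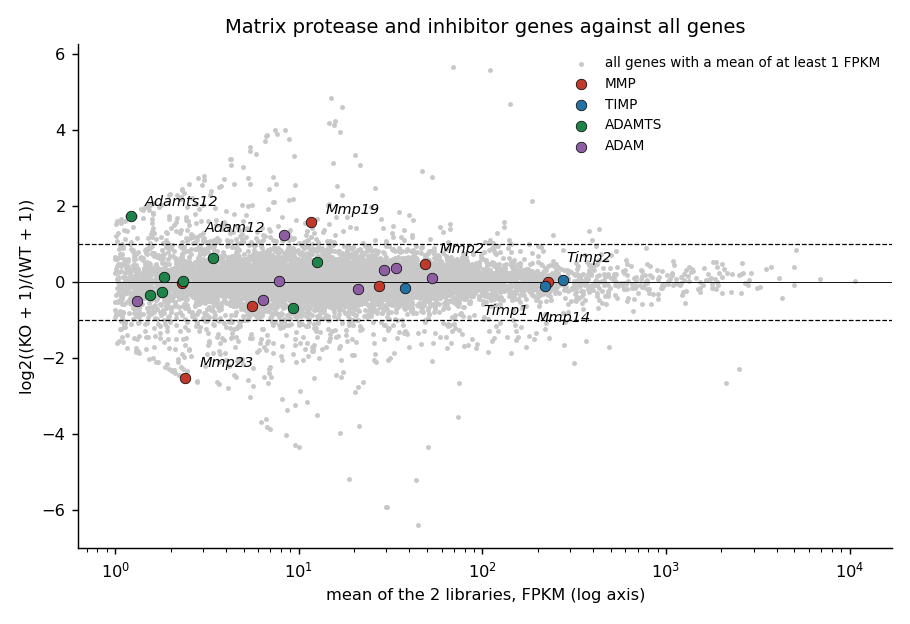
Log2 fold change of the KO-labelled library against WT (vertical axis) by the mean of the 2 libraries in FPKM (log axis), for all 10542 genes past the filter in grey and for the 26 matrix protease and inhibitor genes in colour by family. Dashed lines mark a log2 fold change of 1 in either direction, and 3 coloured points lie above and 1 below them.

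Correction for the chromosomal surroundings altered the calls of 2 genes. With the median of the 20 tested genes on each side subtracted, Adamts12, Mmp2 and Mmp19 were more than 2-fold higher, against 2.62% of all genes with a position, and Mmp23 was more than 2-fold lower, against 2.62%, or 4 genes in either direction, against 5.24%. Mmp2 entered and Adam12 left this count. All 26 genes had a position in the GENCODE annotation, and 10160 of the 10542 genes past the filter did.

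**Figure D4:**
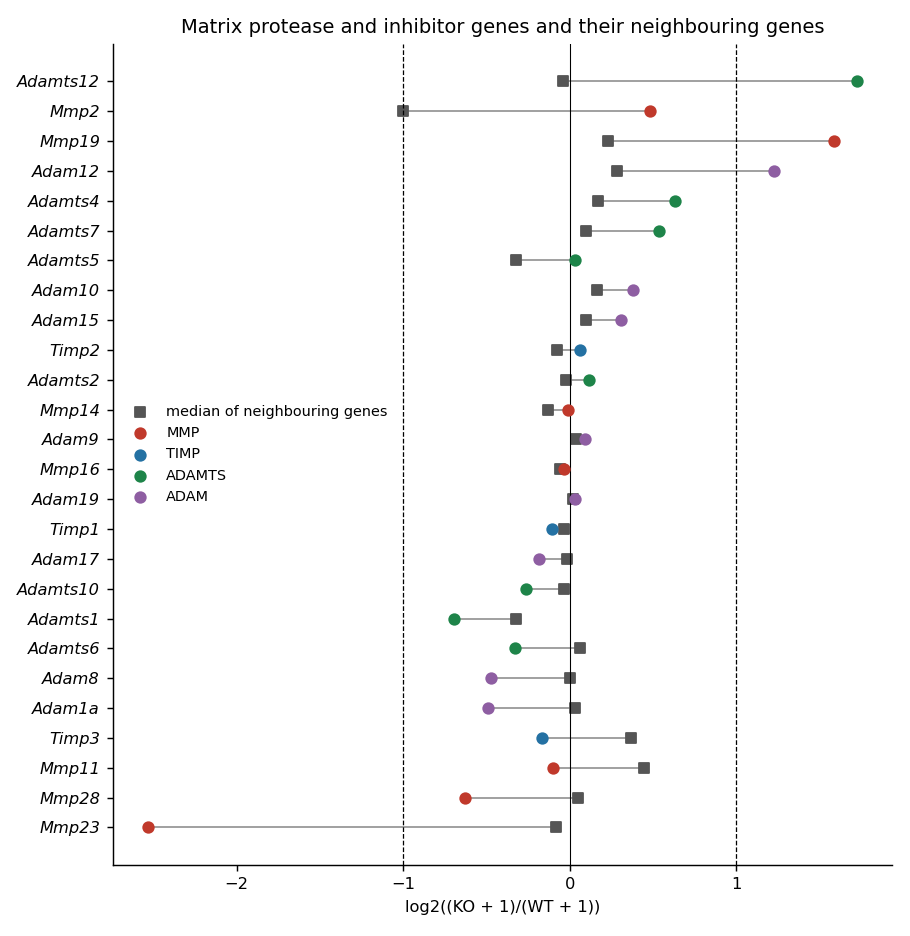
Log2 fold change of the KO-labelled library against WT for each of the 26 genes (circles, by family) and the median of the neighbouring genes past the filter (grey squares), ordered by the difference between them. The square of Mmp2 lies at -1.0 and its circle at 0.48, whereas Mmp19, Adamts12 and Mmp23 lie far from squares near 0.

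Genes that act with these proteases were taken from lists of 62 genes, of which 40 passed. Beyond the 2-fold limit, 2 were higher, against 2.84% of all genes, and 5 lower in the KO-labelled library, against 3.43%. In the plasminogen system, which generates plasmin and can activate MMPs, 0 of 7 genes were more than 2-fold higher and 1 was lower. Plau, which encodes urokinase, was 10.0 FPKM in WT and 20.6 FPKM in the KO-labelled library, a log2 fold change of 0.97. Its receptor Plaur was 53.7 and 30.4 FPKM, a log2 fold change of -0.80. The gene past the limit was Serpinb2, an inhibitor of urokinase, with 1.89 and 0.367 FPKM. Serpinb2 passed the filter through the WT value alone, so that it had to be lower.

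Among 9 further matrix proteases and helpers that passed, the 2-fold limit was exceeded by 0 higher genes, against 2.84% of all genes, and 2 lower genes, against 3.43%. Htra3, a secreted serine protease, was 10.8 FPKM in WT and 2.39 FPKM in the KO-labelled library, a log2 fold change of -1.80. Hpse, the heparanase that cuts heparan sulfate, was 2.43 and 0.282 FPKM, a log2 fold change of -1.42. Hpse also passed the filter through the WT value alone, so that it had to be lower. The gene with the highest mean was Pcolce, which enhances the removal of the C-terminal procollagen propeptide, at 479 and 465 FPKM. Ctsl, which encodes cathepsin L, was 143 and 272 FPKM, a log2 fold change of 0.92.

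Genes for the activation, surface control and clearance of MMPs were higher in the KO-labelled library for each of the 4 past the filter, beside 50.7% of all genes, with a median of 0.44 that was 0.26 after subtraction of the neighbour medians. Lrp1, an endocytic receptor that takes up MMPs, ADAMTS proteases and their complexes with TIMPs, was 69.8 FPKM in WT and 144 FPKM in the KO-labelled library, a log2 fold change of 1.03 that was 0.87 after subtraction of the neighbour median. Bsg, which encodes basigin, an inducer of MMPs with the highest mean of this list, was 376 and 560.5 FPKM, a log2 fold change of 0.57 that was 0.17 after subtraction. Pcsk7, a protease related to furin, was -0.11 after subtraction. Furin, the protease that removes the propeptide of MMP14, MMP11 and many ADAMs, was 30.9 and 38.4 FPKM. Reck, a membrane-anchored MMP inhibitor, stayed below the filter with 0.757 and 0.927 FPKM. Of 7 partners of ADAM10 and ADAM17 past the filter, 0 differed by more than 2-fold, against 6.27% of all genes. Tspan17, with the highest mean, was 31.6 and 40.6 FPKM.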

How the data were processed

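The authors deposited 1 value per gene symbol for each library, without a named unit, and the values were taken as FPKM from column totals of 568410 and 574144 after repeated symbols were removed. Values in TPM over a larger gene set would look alike. The methods describe trimming with TrimGalore, STAR alignment to GRCm39 and quantification with RSEM, while the submitters' processing notes name GRCm38, Trim Galore 0.6.6, STAR 2.7.9a and RSEM 1.3.3. The sources also differ on the library kit and the read length. Symbols that occurred more than once (24 of 21853 entries were repeats) were represented by their entry of higher mean. Positions came from GENCODE vM39 on GRCm39 by symbol, for 19275 genes with a unique match. Neighbours are up to 20 genes past the filter on each side in gene order.

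The members and lists were chosen with earlier results of these data known. Every member with a value of at least 1 FPKM in either library is named, and of the lists of further genes, those beyond 2-fold and the gene with the highest mean. Some items that these rules name are not reported here. Plau, Plaur, Ctsl, Furin and Reck were named after their values were seen. Because the values hold no read counts, no count model, interval or p-value was computed. The calculations were checked on simulated data. Alternatives were pseudocounts of 0.1 and 5, the omission of the filter, a stricter filter at a mean of 5 FPKM, median-of-ratios scaling and subtraction of the neighbour median, and, chosen after seeing the data, leaving out Mmp23. Software was pandas 2.3.3, numpy 2.4.6, matplotlib 3.10.9 and scipy 1.17.1 under Python 3.11.15.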

Additional observations from a re-analysis of the deposited data

How the results depend on the processing

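Since each line has 1 library, no replicate could be left out. No paired analysis was possible because each line has 1 library and no test was run. The number of reads, which limits low genes most, is unknown. A count was called moved if it differed by more than 1.5 times, a family median outside the 95% order-statistic interval of its median, and a gene beyond the interquartile width of all genes, 0.438.

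With a pseudocount of 5, 1 member (Mmp19) was more than 2-fold higher and 0 lower, and of all genes 102 were higher and 176 lower. With a mean of at least 5 FPKM, 2 of 17 members were higher and 0 lower, and of all genes 145 were higher and 221 lower, where fewer genes were tested. Leaving out Mmp23 gave 0 lower members. Under the other alternatives 3 members were higher and, except without Mmp23, 1 lower, with Mmp2 in the place of Adam12 after subtraction of the neighbour median, and the counts over all genes stayed within 1.5 times of 299 and 362, from 266 to 410 higher and from 266 to 471 lower. Under the alternatives run, the medians of the 4 families stayed inside their intervals, which are wide for so few genes. The log2 fold change of Adamts12 was 4.29 and 0.56, and that of Mmp23 -5.61 and -0.97, with pseudocounts of 0.1 and 5. The neighbour median moved 2 genes, Mmp2 and Mmp11.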

Other observations

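AP-1 and ETS factors are transcription factors known to bind MMP promoters, and 10 of those listed passed the filter. In the KO-labelled library 0 were more than 2-fold higher, against 2.84% of all genes, and 1 more than 2-fold lower, against 3.43%. Junb was 282 FPKM in WT and 98.2 FPKM in the KO-labelled library, a log2 fold change of -1.51. It lies on chromosome 8, as Mmp2 does, where the neighbour median was -1.56, and after subtraction its value was 0.05. Junb also had the highest mean of this list. Jun was 33.4 and 52.7 FPKM, and Fosl1 was 57.3 and 56.9 FPKM, both named after their values had been seen. Only RNA of the AP-1 and ETS factors was read, and their part in the levels of the chromosome 9 MMP genes was not tested.

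Of 7 ADAMTS-like genes, whose products resemble ADAMTS proteases but lack the protease domain, 3 passed the filter. Adamtsl3 was 3.90 FPKM in WT and 10.1 FPKM in the KO-labelled library, a log2 fold change of 1.18. Adamtsl4, known from fibrillin microfibrils of the eye, was 15.7 and 7.03 FPKM, a log2 fold change of -1.06. Adamtsl5, with the highest mean, was 23.7 and 29.8 FPKM.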
